A study of Mus musculus with 24 samples.

Results

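Complement is the set of plasma proteins and cell-surface receptors that marks and lyses microbes and damaged cells. The 35 genes described here are its components and regulators: the C1q chains, the lectin pathway, C2 to C9, the alternative pathway, the inhibitors, and the receptors for C3 and C5 fragments. They were chosen by gene name on the array, and 34 of the 35 had a probe bright enough to test, among 21956 genes tested in all. The liver supplies most complement proteins of the blood. Hepatocytes secrete the bulk of them, whereas C1q, properdin and the fragment receptors are products of macrophages and other myeloid cells. Accordingly the members were divided by their usual source into 9 myeloid-made genes, 21 hepatocyte-made genes and 5 of neither class.

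Liver RNA came from 24 female mice, 6 in each of 4 groups, with 1 array per mouse. The groups were KO mice given fumonisin B1 (KO FB1), KO mice given water (KO control), wild-type mice given fumonisin B1 (WT FB1) and wild-type mice given water (WT control). The mice were of the strain sv129/C57 and were 8 weeks old. FB1 was given at 10 mg/kg body weight per day for 1 month. Fumonisin B1 is a mould toxin that blocks ceramide synthases. The KO mice lack LXRα and LXRβ, the nuclear receptors for oxysterols, whose genes are Nr1h3 and Nr1h2. The labels name no restriction of the deletion to a tissue or cell type. The samples are labelled liver, an organ that holds hepatocytes and macrophages, and markers of both were detected.

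Values are log2 signals relative to each array's 75th percentile, so a level of 0 is the 75th percentile and 1 unit is a doubling. Levels are compared between groups for the same probe and not between probes. A gene was called where limma's adjusted p over all 21956 genes was under 0.05, and each ± gives the standard error of the difference, with 6 mice in each group. Between 58.7% and 64.5% of spots per array were well above background, and arrays of 1 group correlated at 0.984 to 0.994 over genes. P-values measure the spread between these mice. The deleted genes followed the labels. Nr1h3 lay between -5.13 and -2.56 in all 12 KO arrays, against 4.71 to 5.06 in all WT arrays, and Nr1h2 lay between 0.31 and 0.80 against 4.02 to 4.34. WT control replicate 4 stood apart: it held the lowest WT control value for 7 of the 9 myeloid-made genes and for 9 of 9 resident macrophage markers. For myeloid-made genes in comparisons that use WT control, calls that its omission altered are given with and without it. Its omission also lost the WT call of C8a.

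In KO livers given FB1, C6 and most myeloid-made complement genes rose, while C7 and C8g of the terminal pathway fell. Mbl1 and Masp2 of the lectin pathway also fell, as did the membrane regulators Cd59a and Cd55, the latter with a call that depended on the probe. Of the 34 tested members 9 rose and 10 fell, or 19 called, against 16.6%, 24.7% and 41.3% of all genes. The groups did not overlap for 8 members, against 18.4% of all genes. Among the 9 myeloid-made genes there were 6 rises and 1 fall. Their median difference was 0.67 on the log2 scale, against -0.08 over all genes. The hepatocyte-made genes split, with 3 of 21 higher and 5 lower and a median of -0.16. That hepatocyte median has no settled direction, since it was 0.13 under quantile normalisation and 0.10 in the authors' values. The split over all members was then 12 higher and 7 lower with each. Of all genes 40.6% and 37.3% were called there, 48.3% and 49% of them higher. In WT livers the same dose called 1 member, C8a, which rose, where 2.89% of all genes were called, 2.06% higher and 0.824% lower. The WT groups overlapped for every tested member, and 2.32% of all genes did not overlap. The difference of the FB1 effects between genotypes, tested directly, was called for 8 members, 5 of them higher in KO and 3 lower, where 9.4% of all genes were called, 4.49% and 4.91% in those directions. Its median was 0.72 over the myeloid-made and -0.25 over the hepatocyte-made genes, and the myeloid value was 0.09 on slide 2 alone. Both FB1 comparisons enter that difference and so share their arrays with it.

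**Figure D1:**
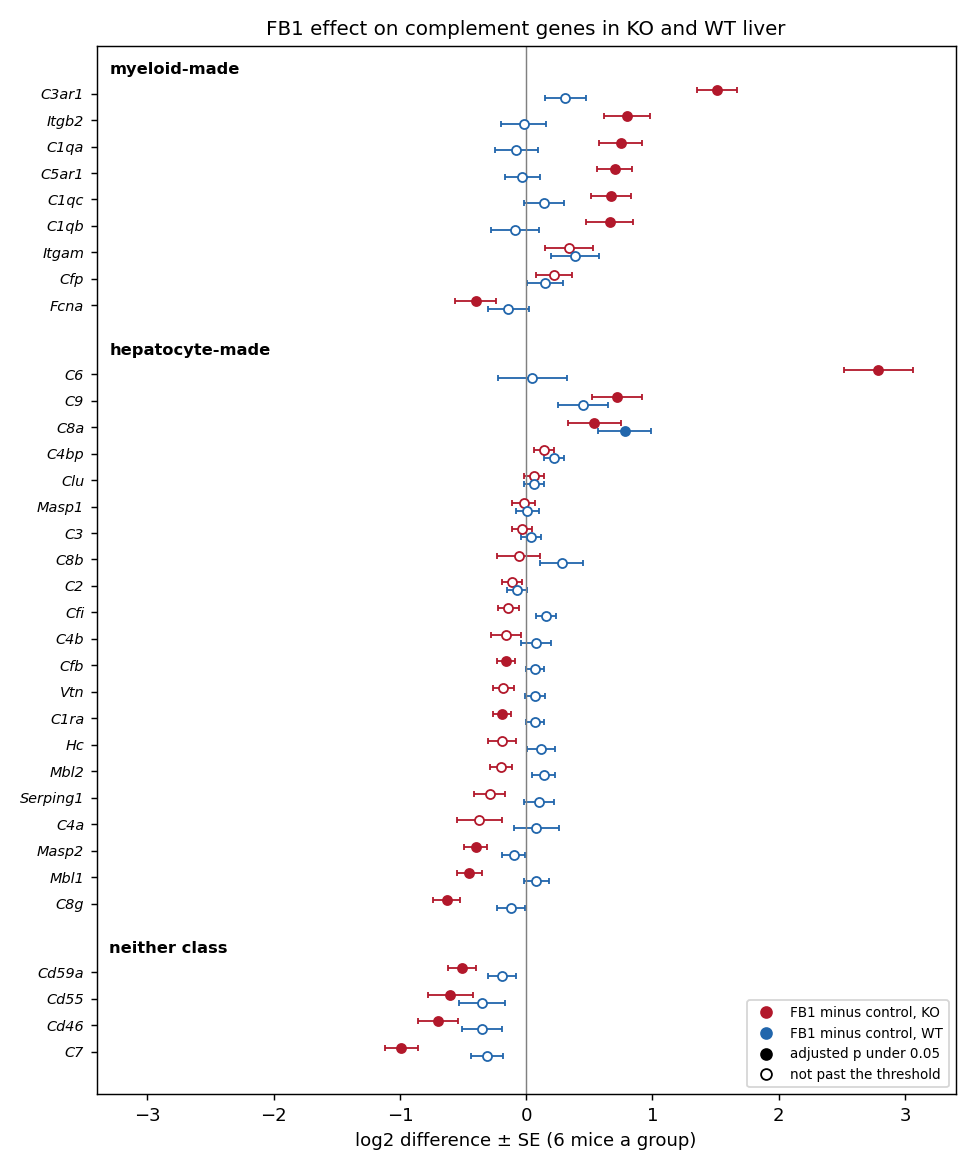
Log2 difference ± SE between FB1 and control mice for the 34 tested members, by class, in KO (red) and WT (blue) livers of 6 mice a group. Filled points passed the adjusted p threshold of 0.05. C6 stands at 2.79 in KO and 0.05 in WT, and 6 of the 9 myeloid-made genes are filled to the right of 0 in KO.

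Without FB1, C6 and several myeloid-made genes were lower in KO than in WT livers, as was Cd59a by 1 of its 2 probes. Of the 34 members 2 were higher and 8 lower, where 15.2% of all genes were called, 7.18% and 8.03% in those directions. Of the 8 lower members 6 were myeloid-made, and the class median was -0.67, against 0.06 for the hepatocyte-made genes and 0.01 over all genes. The -0.67 is the value of Itgam, which was lower by 1 of its 2 probes, the other giving 0.27 ± 0.30. The call of C5ar1, also among the 6, lay at the threshold (adjusted p = 0.0493). On slide 2 alone, which held WT control replicate 4, that myeloid median was -0.36. Groups did not overlap for 5 members, against 7.93% of all genes. With FB1 in both genotypes, 3 members were higher and 14 lower in KO, where 32.9% of all genes were called, 14.6% and 18.3% in those directions, and the groups did not overlap for 10 members, against 15.2% of all genes. The myeloid median was then 0.02, with 2 genes higher and 3 lower, and the hepatocyte median -0.15, with 1 higher and 8 lower. Quantile normalisation gave 4 higher and 6 lower members in that comparison and the authors' values 3 and 6. Of all genes 33.8% and 31.5% were called there, 51.9% and 52.6% of them higher. In bulk liver, fewer cells of a type and less RNA per cell cannot be told apart.

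**Figure D2:**
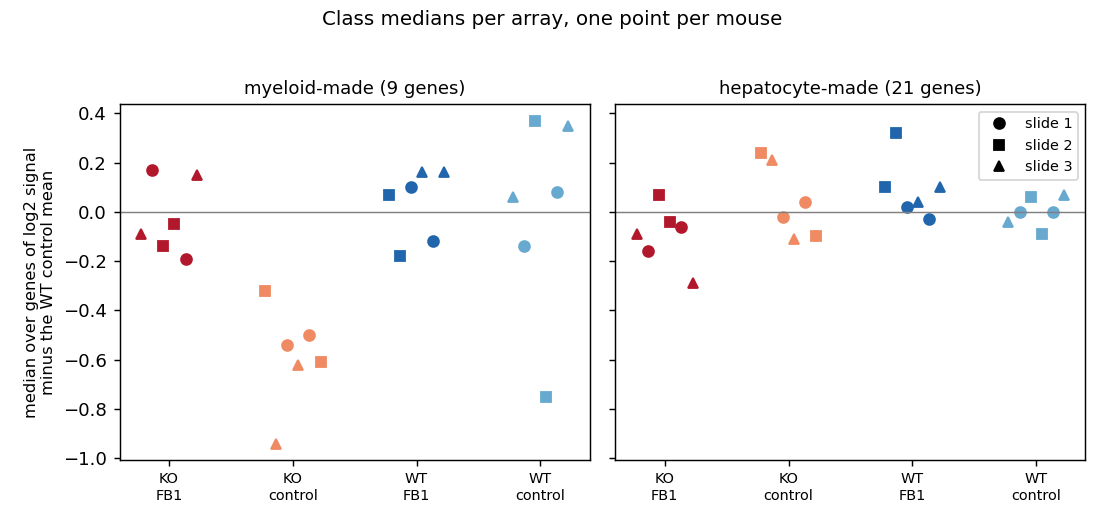
Median over the 9 myeloid-made (left) or 21 hepatocyte-made genes (right) of the log2 signal minus the WT control mean, 1 point per mouse, with the slide as symbol. The 6 KO control arrays lie between -0.94 and -0.32 in the myeloid class, and the KO FB1 arrays between -0.19 and 0.17, while WT control replicate 4 lies at -0.75.

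C1q, the recognition molecule of the classical pathway, binds antibody complexes and dying cells and is assembled from chains A, B and C. The 3 chain genes are neighbours on chromosome 4 in the order C1qb, C1qc, C1qa, with gaps of 3.6 and 3 kb in the GRCm38 RefSeq annotation. C1qa ranged from 2.28 to 2.65 in KO FB1 livers with a median of 2.38, and from 1.24 to 1.97 in KO control livers with a median of 1.69. The groups did not overlap, and the difference was 0.75 ± 0.17 (adjusted p = 0.00163). In WT livers the C1qa signal ranged from 1.88 to 2.66 with FB1 and from 1.62 to 2.96 without, and the groups overlapped almost fully (-0.08 ± 0.17, adjusted p = 0.85). The FB1 effect differed between genotypes by 0.83 ± 0.25 (adjusted p = 0.0367), a call lost in 13 of 35 alternatives. Without FB1, C1qa was lower in KO than in WT by -0.80 ± 0.17 (adjusted p = 0.00222), and with FB1 in both they differed by 0.02 ± 0.17 (adjusted p = 0.94).

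C1qb and C1qc rose with FB1 in KO livers too. C1qb had a median of 2.34 (2.14 to 2.71) in KO FB1 livers and 1.72 (1.4 to 2) in KO control livers, a rise of 0.66 ± 0.19 with no overlap (adjusted p = 0.00855). C1qc lay at 3.39 (3.03 to 3.56) in KO FB1 livers and 2.67 (2.40 to 3.08) in KO control livers, a rise of 0.67 ± 0.16 (adjusted p = 0.00192), and there the lowest FB1 array fell just below the highest control array. Neither chain passed the test in WT livers (C1qb -0.09 ± 0.19, C1qc 0.14 ± 0.16). Without FB1 C1qc was lower in KO than in WT by -0.74 ± 0.16 (adjusted p = 0.00215), whereas C1qb differed by -0.48 ± 0.19 (adjusted p = 0.0991). Leaving out WT control replicate 4 brought C1qb past the threshold at -0.68 (adjusted p = 0.00312), with C1qa at -0.98 and C1qc at -0.89. The same omission brought the difference of the FB1 effects past the threshold for C1qb (0.95, adjusted p = 0.00608) and C1qc (0.68, adjusted p = 0.0199), against 0.75 and 0.53 with all arrays (adjusted p = 0.082 and 0.141).

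The bases before the listed starts of C1qb and C1qc are shown because both genes rose in KO FB1 livers and hold letters of a myeloid factor's motif. They are RefSeq sequence of GRCm38.p6, minus strand, 250 bases each ending at the base before the start used in the promoter table, from chr4:136886201-136886450 for C1qb and chr4:136892915-136893164 for C1qc. The RefSeq entry of the C1qc gene reaches to 136892936, beyond that start, so the last bases printed for C1qc lie within the gene entry, and its distances are counted from the promoter table's start. Capitals mark the letters of the PU.1 motif. PU.1, encoded by Spi1, is a transcription factor of myeloid cells.
C1qb: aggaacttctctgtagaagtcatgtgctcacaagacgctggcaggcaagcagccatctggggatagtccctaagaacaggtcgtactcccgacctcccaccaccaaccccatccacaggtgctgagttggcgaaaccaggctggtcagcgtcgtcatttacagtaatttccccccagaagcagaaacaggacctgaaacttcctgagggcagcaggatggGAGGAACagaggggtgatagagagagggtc
C1qc: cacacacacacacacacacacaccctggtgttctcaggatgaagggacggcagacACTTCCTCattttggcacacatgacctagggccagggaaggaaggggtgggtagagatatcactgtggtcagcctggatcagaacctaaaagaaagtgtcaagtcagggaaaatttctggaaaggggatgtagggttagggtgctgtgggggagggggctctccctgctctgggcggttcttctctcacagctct
The motif was searched as GAGGAAGT or GAGGAAC on both strands of windows of 250 bases before to 50 after each start. C1qb holds the shorter form 30 bases before its start on the gene's strand, and C1qc the longer form 195 bases before its start on the other strand. Cfp holds the shorter form at 2 places, 5 and 21 bases after its start. Of the 25 members with such a window, these 3 (12%) held a match, and all 3 are among the 7 myeloid-made genes with a window, while 8.16% of all 32851 windows held one. Spi1 itself rose by 0.94 ± 0.23 with FB1 in KO livers (adjusted p = 0.00234) and differed from its WT response by 1.18 ± 0.32 (adjusted p = 0.0247). Cfp, which also holds the motif, was not called with FB1 in KO (0.22 ± 0.14). The part of PU.1 in these values was not tested.

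Properdin, encoded by Cfp, stabilises the C3 convertase of the alternative pathway and is released by neutrophils and macrophages. Cfp had a median of 2.30 (2.18 to 2.49) in KO FB1 livers, 2.09 (1.85 to 2.26) in KO control livers, 4.17 (3.91 to 4.40) in WT FB1 livers and 4.19 (3.22 to 4.36) in WT control livers. Every KO array lay below every WT array, WT control replicate 4 at 3.22 included. The KO minus WT difference was -1.96 ± 0.14 without FB1, a 3.89-fold lower signal (adjusted p = 2.89e-10), and -1.89 ± 0.14 with FB1 (adjusted p = 4.62e-10). FB1 called Cfp in neither genotype (KO 0.22 ± 0.14, WT 0.15 ± 0.14), and the difference of its effects was 0.07 ± 0.20 (adjusted p = 0.866). A further probe, which spans an exon junction on the minus strand at chrX:20504475-20504676 (mm9), gave -2.10 ± 0.16 and -1.94 ± 0.16 for the same genotype comparisons. Its 60 bases are shown because it reads another stretch of the gene and returned the same difference.
Cfp probe: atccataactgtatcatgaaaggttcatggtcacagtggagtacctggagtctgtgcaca

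Fcna encodes ficolin A, a lectin of macrophages that binds acetylated sugars and starts the lectin pathway. Fcna had a median of 0.84 (0.22 to 1.26) in KO FB1 livers, 1.32 (0.83 to 1.36) in KO control livers, 1.79 (1.58 to 2.15) in WT FB1 livers and 2.03 (1.63 to 2.40) in WT control livers. All 12 KO arrays lay below all 12 WT arrays. Fcna was lower in KO by -0.81 ± 0.16 without FB1 (adjusted p = 0.00084) and by -1.08 ± 0.16 with FB1 (adjusted p = 1.6e-05). Its further fall with FB1 in KO, -0.40 ± 0.16 (adjusted p = 0.0491), lay at the threshold and was lost in 21 of 36 alternatives.

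The receptors for the inflammatory fragments C3a and C5a rose with FB1 in KO livers. C3ar1 had a median of -2.62 (-2.90 to -2.44) in KO FB1 livers and -4.19 (-4.38 to -3.93) in KO control livers. The groups were far apart, and the rise of 1.51 ± 0.16 was 2.84-fold (adjusted p = 3.25e-07). The size depended on the background step, at 0.74 with normexp and 0.96 in the authors' values, both past the threshold. In WT livers C3ar1 lay at -3.44 (-3.96 to -3.14) with FB1 and -3.69 (-4.28 to -3.20) without, overlapping groups that differed by 0.31 ± 0.16 (adjusted p = 0.307). The FB1 effect on C3ar1 was larger in KO by 1.20 ± 0.22 (adjusted p = 0.00253), or 0.57 with normexp. With FB1 in both genotypes C3ar1 was higher in KO by 0.84 ± 0.16 (adjusted p = 0.000246), or 0.42 with normexp, though without FB1 it differed by -0.36 ± 0.16 (adjusted p = 0.144).

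C5ar1 had a median of -3.00 (-3.33 to -2.68) in KO FB1 livers and -3.74 (-3.88 to -3.18) in KO control livers, a rise of 0.70 ± 0.14 (adjusted p = 0.000333), with KO control replicate 1 alone reaching into the FB1 range. That rise was 0.31 with normexp and 0.36 in the authors' values, both past the threshold. Its WT levels overlapped, at -3.35 (-3.51 to -2.94) with FB1 and -3.26 (-3.68 to -2.92) without, and the difference of the FB1 effects was 0.72 ± 0.19 (adjusted p = 0.0214), or 0.29 with normexp, no longer past the threshold. The lower level in KO without FB1, -0.40 ± 0.14, lay at the threshold (adjusted p = 0.0493) and was lost in 26 of 36 alternatives.

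Itgb2 and Itgam encode the β2 and αM chains of complement receptor 3, the phagocytic receptor for C3 fragments. Itgb2 had a median of 0.38 (0.32 to 0.78) in KO FB1 livers and -0.37 (-0.70 to -0.01) in KO control livers, separate ranges that differed by 0.80 ± 0.18 (adjusted p = 0.00101). In WT livers it lay at -0.59 (-0.90 to -0.38) with FB1 and -0.47 (-1.41 to 0.05) without (-0.02 ± 0.18, adjusted p = 0.974). Under FB1 Itgb2 was higher in KO by 1.04 ± 0.18 (adjusted p = 8.23e-05), and its FB1 effects differed by 0.82 ± 0.25 (adjusted p = 0.0412), a call lost in 16 of 35 alternatives. The brightest Itgam probe was lower in KO by -0.67 ± 0.19 without FB1 and -0.72 ± 0.19 with FB1 (adjusted p = 0.0182 and 0.00528). That probe holds a run of 10 CA repeats, and the other Itgam probe, above background on 5 or 6 arrays of each group, gave 0.27 ± 0.30 and -0.11 ± 0.30. The direction of Itgam therefore rests on 1 probe.

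**Figure D3:**
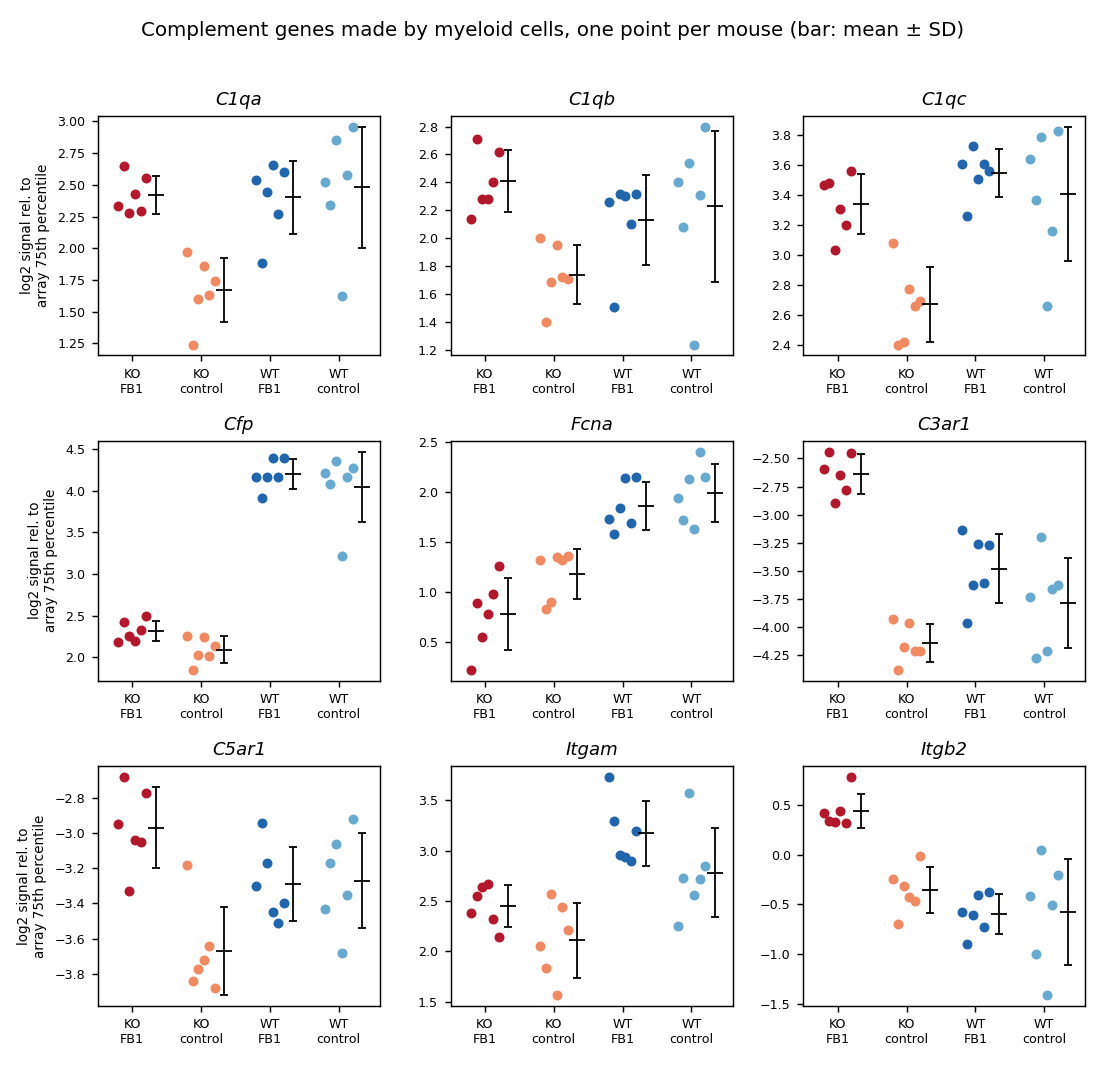
Log2 signal relative to the array's 75th percentile for the 9 myeloid-made genes, 1 point per mouse, with mean and SD beside the points, in KO FB1, KO control, WT FB1 and WT control livers. Cfp reaches 2.49 at most in KO arrays and 3.22 at least in WT arrays, while the KO FB1 and KO control points of C1qa and C3ar1 do not overlap.

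Markers of macrophage kinds also differed between the groups, the resident and recruited lists in different directions, and their part in the results was not tested. Of 9 resident macrophage markers 8 were lower in KO than in WT without FB1 (median -2.38), against 8.03% of all genes. With FB1 8 were lower (median -2.77), against 18.3% of all genes. The summed level of that list ranged from 5.01 to 5.56 in KO FB1, 4.79 to 5.50 in KO control, 6.98 to 7.49 in WT FB1 and 6.17 to 7.63 in WT control livers. Cd5l, a lipid-binding protein secreted by macrophages, was lower in KO by -9.16 ± 0.28 without FB1 and by -9.46 ± 0.28 with FB1 but was still above background on all KO arrays, and Cd163, the scavenger receptor for haemoglobin, was lower by -3.72 ± 0.30 and -5.8 ± 0.30. FB1 raised 0 and lowered 2 of the 9 in KO, where 16.6% of all genes rose and 24.7% fell. Of 10 recruited macrophage markers FB1 raised 8 and lowered 0 in KO livers (median 1.38), and it raised 5 in WT livers (median 0.78), where no myeloid-made complement gene was called. Of all genes 16.6% rose in KO and 2.06% in WT. Between genotypes 6 of the 10 recruited markers were higher and 1 lower in KO without FB1 (median 1.13), against 7.18% and 8.03% of all genes. With FB1 8 were higher and 1 lower (median 2.05), against 14.6% and 18.3% of all genes. Both medians were opposite to the myeloid-made median of -0.67 without FB1. The summed level of the list did not follow the count without FB1, its median being lower in KO control than in WT control (5.84 against 6.27), and it was 6.75 to 7.09 in KO FB1, 5.48 to 5.98 in KO control, 5.73 to 6.57 in WT FB1 and 5.8 to 6.73 in WT control livers. Gpnmb, which marks macrophages filled with lipid, stood higher in KO by 6.76 ± 0.39 without FB1. Ly6c2 was the 1 lower gene in both genotype comparisons, and the lowest differences of the list were -2.32 without FB1 and -1.82 with FB1. Of 9 neutrophil markers 2 were lower in KO without FB1 and 7 with FB1 (median -1.84), against 8.03% and 18.3% of all genes. FB1 called 1 in each genotype, higher, where 16.6% of all genes rose in KO and 2.06% in WT. The summed neutrophil level was 2.29 to 3.13 in KO FB1, 1.56 to 2.71 in KO control, 3.16 to 5.35 in WT FB1 and 1.47 to 4.09 in WT control livers.

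C6 showed the widest swings among the 34 tested members, in both FB1 in KO livers and KO against WT without FB1. C6 is a plasma protein that joins C5b at a target membrane and so begins the membrane attack complex. It had a median of 0.24 (-0.99 to 1.46) in KO FB1 livers and -2.44 (-3.15 to -2.17) in KO control livers. The medians in WT livers were -0.19 (-0.28 to 0.14) with FB1 and -0.22 (-0.71 to 0.41) without. All 6 KO control arrays thus lay below the 18 others, and the KO FB1 arrays spread over and around the WT range. FB1 raised C6 in KO by 2.79 ± 0.27, or 6.91-fold (adjusted p = 1.57e-07), and the difference in WT was 0.05 ± 0.27 (adjusted p = 0.942).

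Without FB1, C6 was lower in KO than in WT by -2.28 ± 0.27, or 4.84-fold (adjusted p = 1.6e-06). With FB1 the genotypes differed by 0.46 ± 0.27 (adjusted p = 0.213), a value that became 0.72 (adjusted p = 0.0223) without KO FB1 replicate 2. The FB1 effect on C6 was larger in KO by 2.73 ± 0.39 (adjusted p = 0.000313). Within the 3 slides, each with 2 arrays of every group, the rise in KO was 1.89, 2.52 and 3.95. The single C6 probe spans an exon junction on the plus strand at chr15:4689842-4705241 (mm9), and its 60 bases are shown because the result rests on it alone.
C6 probe: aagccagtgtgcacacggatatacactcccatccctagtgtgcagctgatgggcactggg

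C7, which joins the C5b-6 complex and anchors it in the membrane, went the other way. It was placed in neither class, as a product of mesenchymal cells, and its gene lies 183.7 kb from C6 on chromosome 15 in GRCm38. C7 had a median of -1.89 (-2.16 to -1.51) in KO FB1 livers and -0.76 (-1.25 to -0.47) in KO control livers, ranges that did not meet. The fall was -0.99 ± 0.13 (adjusted p = 4.09e-06). In WT livers C7 lay at -1.25 (-1.49 to -1.14) with FB1 and -0.98 (-1.25 to -0.66) without, a difference of -0.31 ± 0.13 (adjusted p = 0.199). The FB1 effects on C7 differed by -0.68 ± 0.18 (adjusted p = 0.0229), a call lost in the authors' values (-0.53, adjusted p = 0.079). C7 was -0.53 ± 0.13 lower in KO under FB1 (adjusted p = 0.00276), and it differed by 0.14 ± 0.13 without FB1. Over the same arrays 6 of 8 stellate and mesenchymal markers rose with FB1 in KO and 0 fell (median 0.71), against 16.6% and 24.7% of all genes. Their summed level was 6.85 to 7.08 in KO FB1, 6.31 to 6.63 in KO control, 6.35 to 6.61 in WT FB1 and 5.99 to 6.42 in WT control livers. Lum and Col1a1, matrix genes of these cells, rose by 1.59 ± 0.15 and 2.75 ± 0.32, and the part of these cells in the C7 values was not tested.

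The chains of C8, which inserts into the membrane, differed in their results. C8a was higher by 0.54 ± 0.21 with FB1 in KO, 0.78 ± 0.21 with FB1 in WT, 0.81 ± 0.21 in KO against WT without FB1 and 0.58 ± 0.21 with FB1 in both (adjusted p = 0.041, 0.0427, 0.0088 and 0.0369). Its medians were 5.36 (5.20 to 5.40) in KO FB1, 4.68 (4.42 to 5.24) in KO control, 4.65 (4.19 to 5.56) in WT FB1 and 4.18 (3.37 to 4.42) in WT control livers, so the KO FB1 arrays lay close together, while each pair of groups compared overlapped. The call with FB1 in KO was lost in 10 of 35 alternatives, 9 of them the omission of 1 array, and that under FB1 between genotypes in 9 of 35. The WT call was lost in 17 of 35, among them slide as a block and the omission of WT control replicate 4. The WT value within slides was 0.83, 1.43 and 0.08. Another C8a probe gave differences of 0.80 ± 0.25, 0.98 ± 0.25, 0.90 ± 0.25 and 0.72 ± 0.25 in the same order.

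C8b lies 11.1 kb from C8a and was called in no comparison (-0.06 ± 0.17 with FB1 in KO, 0.28 ± 0.17 in WT). C8g, the lipocalin-like chain, had a median of 7.29 (7.12 to 7.94) in KO FB1 livers and 8.01 (7.84 to 8.16) in KO control livers and fell by 0.63 ± 0.11 (adjusted p = 0.000147), with -0.34 under quantile normalisation and -0.33 in the authors' values. One KO FB1 array reached into the control range. In WT livers C8g differed by -0.12 ± 0.11, and the difference of the FB1 effects was -0.51 ± 0.16 (adjusted p = 0.0464), lost in 22 of 35 alternatives.

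C9 polymerises into the pore. It had a median of 5.88 (5.53 to 6.02) in KO FB1 livers and 4.96 (4.44 to 5.73) in KO control livers, overlapping ranges that differed by 0.72 ± 0.20 (adjusted p = 0.00733). In WT livers C9 had a median of 5.88 (5.46 to 6.45) with FB1 and 5.52 (4.96 to 5.92) without (0.45 ± 0.20, adjusted p = 0.249). The difference of the FB1 effects on C9 did not pass the test (0.27 ± 0.29, adjusted p = 0.615). Hc, which encodes C5, the source of C5a and C5b, was called in no comparison and ranged from -0.19 ± 0.11 to 0.17 ± 0.11 over the FB1 and genotype comparisons.

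**Figure D4:**
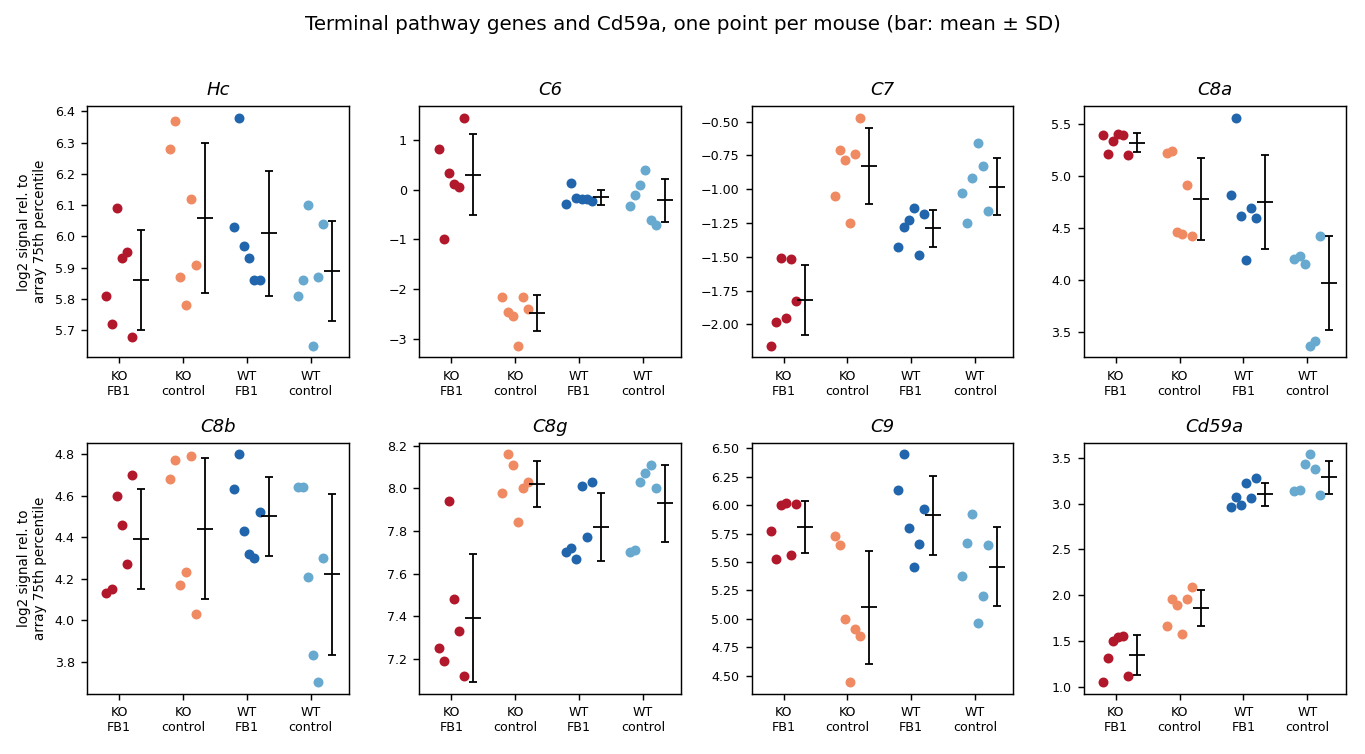
Log2 signal relative to the array's 75th percentile for the terminal pathway genes and Cd59a, 1 point per mouse with mean and SD, in KO FB1, KO control, WT FB1 and WT control livers. C6 is lowest in the 6 KO control arrays (-3.15 to -2.17), C7 is lowest in KO FB1, and the Cd59a probe shown, 1 of 2, is low in both KO groups.

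Mbl1 and Masp2, hepatocyte-made genes of the lectin pathway, fell with FB1 in KO livers. Mbl1, mannose-binding lectin A, had a median of 3.97 (3.73 to 4.27) in KO FB1 livers and 4.37 (4.27 to 4.65) in KO control livers, and fell by 0.45 ± 0.10 (adjusted p = 0.00123). In WT livers Mbl1 lay at 4.10 (3.83 to 4.44) with FB1 and 4.05 (3.99 to 4.18) without, and the FB1 effects differed by -0.53 ± 0.14 (adjusted p = 0.0224). Without FB1, Mbl1 was higher in KO by 0.34 ± 0.10 (adjusted p = 0.0219). Masp2, the protease that cleaves C4 and C2 for the lectin pathway, fell by 0.40 ± 0.09 with FB1 in KO (adjusted p = 0.000966), with medians of 4.55 (4.42 to 4.79) in KO FB1 and 4.95 (4.78 to 5.15) in KO control livers. Its 3 probes gave -0.40, -0.44 and -0.59. Under quantile normalisation the falls were -0.27 for Mbl1 and -0.21 for Masp2, still past the threshold.

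Mbl2, mannose-binding lectin C, was not called for FB1 in KO (-0.20 ± 0.09, adjusted p = 0.0697) but was -0.50 ± 0.09 lower in KO than in WT under FB1 (adjusted p = 0.000119), with medians of 7.68 (7.57 to 7.79) in KO and 8.24 (7.94 to 8.38) in WT. Masp1, another protease of the pathway, depended on the probe. The brightest of its 5 tested probes, at chr16:23468544-23468603 on the minus strand (mm9), differed by 0.07 ± 0.09 between genotypes without FB1 and by 0.04 ± 0.09 with FB1. Another, at chr16:23449609-23449668, was lower in KO by -0.65 ± 0.12 and -1.10 ± 0.12 (adjusted p over probes 0.000297 and 1.3e-07). Its medians were 3.26 (2.64 to 3.58) in KO FB1, 3.66 (3.59 to 3.90) in KO control, 4.27 (4.09 to 4.49) in WT FB1 and 4.33 (4.21 to 4.48) in WT control livers, so the genotypes did not overlap. A further probe, at chr16:23452460-23452519, gave -0.57 ± 0.10 and -0.62 ± 0.10, and the 2 remaining probes lay between -0.22 and 0.22. Which Masp1 transcripts each probe reads was not tested.

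Among the hepatocyte-made genes of the classical and alternative pathways the differences were small. C1ra, a protease of the C1 complex, fell by 0.19 ± 0.07 with FB1 in KO (adjusted p = 0.0345), but the value was 0.01 under quantile normalisation and 0.04 in the authors' values. Cfb, the factor B that forms the alternative convertase with C3b, differed by -0.16 ± 0.07 (adjusted p = 0.0494), and by 0.14 and 0.17 under those scalings. Another Cfb probe gave -0.29 ± 0.08 for FB1 in KO (adjusted p over probes 0.00486). Cfi, encoding factor I, the protease that cleaves C3b, differed by -0.14 ± 0.08 (adjusted p = 0.178), and by 0.21 and 0.19 under the same 2 scalings, past the threshold. C3, the protein on which all pathways converge, was called in no comparison, with differences between -0.06 ± 0.08 and 0.04 ± 0.08 over the FB1 and genotype comparisons. In the genotype comparison under FB1, 8 hepatocyte-made genes were lower in KO: C1ra (-0.31 ± 0.07), C2 (-0.28 ± 0.08), C4a (-0.51 ± 0.18), C8g (-0.43 ± 0.11), Cfi (-0.32 ± 0.08), Masp2 (-0.27 ± 0.09), Mbl2 and Serping1 (-0.32 ± 0.12). Under quantile normalisation these 8 lay between -0.45 and -0.04 and 0 of the 8 passed the threshold (adjusted p from 0.06 to 0.726), and in the authors' values 0 of the 8 did.

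C2 and C4 supply the classical convertase, and Serping1 encodes the C1 inhibitor. The MHC class III genes Cfb and C2 lie 0.1 kb apart on chromosome 17, with C4b and C4a beside them. C4a and C4b are near-identical copies, so their probes may read both. C4b was called in no comparison by its brightest probe (-0.27 ± 0.12 for KO against WT under FB1, adjusted p = 0.0868). Another C4b probe gave -0.43 ± 0.16 there (adjusted p over probes 0.0448). The inhibitor C4bp, and the soluble terminal inhibitors Vtn and Clu, which hold the attack complex in solution, were called in no comparison either. With FB1, Clu differed by 0.06 ± 0.08 in KO livers and by as much in WT livers, C4bp by 0.14 ± 0.08 and 0.22 ± 0.08, and Vtn by -0.18 ± 0.08 and 0.07 ± 0.08. Of 10 hepatocyte markers FB1 lowered 3 in KO livers and 0 in WT livers, against 24.7% and 0.824% of all genes. Cps1, the first enzyme of the urea cycle, stood at -0.83 ± 0.14 in KO. Between genotypes without FB1 0 of the 10 markers were called, against 15.2% of all genes. The summed level of these markers was 11.80 to 12.30 in KO FB1, 12.05 to 12.32 in KO control, 12.12 to 12.32 in WT FB1 and 12.11 to 12.23 in WT control livers, and its part in the results was not tested.

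**Figure D5:**
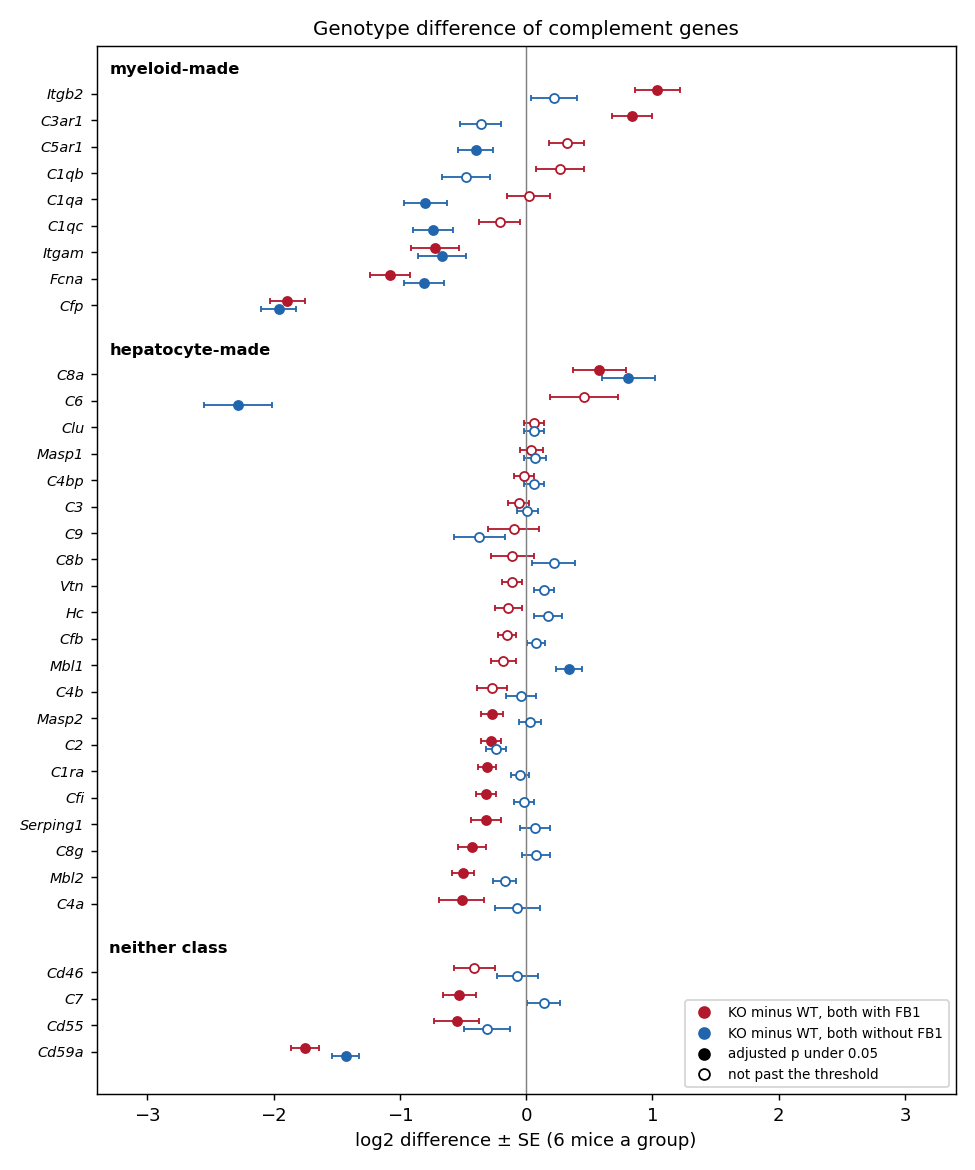
Log2 difference ± SE between KO and WT livers for the 34 tested members, with FB1 in both genotypes (red) and without (blue), 6 mice a group. Filled points passed the adjusted p threshold of 0.05. Cfp and the Cd59a probe shown, 1 of 2, are lower in KO in both comparisons, while C6 stands at 0.46 with FB1 and -2.28 without.

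Cd55, Cd46 and Cd59a, listed as membrane regulators of complement, were called lower with FB1 in KO livers, Cd55 and Cd46 with the limits given here. Cd55 encodes decay-accelerating factor, Cd46 the cofactor for factor I, and Cd59a the inhibitor of the attack complex. Cd55 had a median of -0.12 (-0.73 to 0.09) in KO FB1 livers and 0.40 (-0.08 to 0.83) in KO control livers and fell by 0.60 ± 0.18 (adjusted p = 0.00974). That is the brightest of its 4 tested probes. The others gave -0.66 ± 0.16, -0.45 ± 0.20 and -0.27 ± 0.12 (adjusted p over probes 0.00283, 0.0772 and 0.0851). In the authors' values 1 of the 4 calls of neither-class genes for FB1 in KO was lost (adjusted p = 0.0598). Cd46 fell by 0.70 ± 0.16 (adjusted p = 0.00139) but was dim, well above background on 4 of 6 KO FB1 arrays, 5 of 6 KO control, 5 of 6 WT FB1 and 6 of 6 WT control arrays. It was tested because WT control, where its median was highest, passed the filter, and neither group of the comparison did. With normexp background correction its difference was -0.14 and not called, and in the authors' values it was -0.27 and called. Neither was called with FB1 in WT (both -0.35), and the differences of the FB1 effects were -0.24 ± 0.25 and -0.35 ± 0.23.

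Cd59a had a median of 1.41 (1.05 to 1.56) in KO FB1 livers, 1.93 (1.58 to 2.09) in KO control livers, 3.07 (2.96 to 3.28) in WT FB1 livers and 3.26 (3.09 to 3.54) in WT control livers. Every KO array lay below every WT array, with a difference of -1.43 ± 0.11 without FB1 and -1.75 ± 0.11 with FB1 (adjusted p = 6.61e-10 and 1.51e-11), and FB1 lowered it in KO by 0.51 ± 0.11 (adjusted p = 0.000635). That probe lies at chr2:103954688-103954747 (mm9, plus strand). Another Cd59a probe, at chr2:103954170-103954229, also fell with FB1 in KO (-0.53 ± 0.11), but between genotypes it gave -0.01 ± 0.11 without FB1 and -0.39 ± 0.11 with FB1, so the genotype difference without FB1 was seen with 1 of 2 probes, and the mean of both gave -0.72 without FB1 and -1.07 with FB1. In GRCm38 Cd59a lies 12.9 Mb from the deleted Nr1h3 on chromosome 2, and its paralogue Cd59b, which was lower in KO by -2.34 ± 0.13 without FB1 and -3.24 ± 0.13 with FB1, lies 9.96 kb from Cd59a. Whether these probes read a difference in transcript level or in sequence was not tested.

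Cfd, which encodes factor D, the protease that activates factor B and is made largely by fat cells, was not tested. It has 2 probes, and neither was well above background on any array except 1 probe on WT FB1 replicate 6. Of 4 tested adipocyte markers 1, Cidec, rose with FB1 in KO, where 16.6% of all genes rose. The summed level of these markers was 2.10 to 3.03 in KO FB1 and 1.78 to 2.44 in KO control livers, 1.80 to 2.24 in WT FB1 and 1.5 to 2.36 in WT control livers.

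Of 23 tested complement genes beyond the 35, 2 rose and 15 fell with FB1 in KO livers (median -0.36), and 1 rose in WT livers. Of all genes 16.6% rose and 24.7% fell in KO, and 2.06% rose in WT. Between genotypes 2 of the 23 were higher and 3 lower in KO without FB1, against 7.18% and 8.03% of all genes. With FB1 3 were higher and 11 lower, against 14.6% and 18.3% of all genes. The difference of the FB1 effects was called for 1 higher and 6 lower genes, against 4.49% and 4.91% of all genes. Vsig4 and Itgax also stand among the macrophage markers above. Vsig4, a macrophage receptor for C3b, was lower in KO by -2.88 ± 0.29 without FB1 and -3.94 ± 0.29 with FB1. Itgax, the αX chain of complement receptor 4, was higher in KO by 2.29 ± 0.22 and 2.83 ± 0.22, and FB1 raised it in both KO (1.51 ± 0.22) and WT (0.96 ± 0.22). Susd4, a membrane complement inhibitor, fell by 3.01 ± 0.48 with FB1 in KO and was 3.29 ± 0.48 higher in KO without FB1. It ranged from -2.94 to 1.40 over the KO FB1 arrays, against 2.30 to 2.95 over the KO control arrays. Cpb2, the carboxypeptidase that inactivates C5a, fell in KO by 0.45 ± 0.10, and Cd93, a receptor once assigned to C1q, rose by 0.51 ± 0.10.

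Of 19 tested regulators of complement expression, 2 rose and 4 fell with FB1 in KO and 0 were called in WT. Of all genes 16.6% rose and 24.7% fell in KO, and 2.89% were called in WT, so these counts did not exceed the shares over all genes. Irf8, a myeloid transcription factor, rose by 0.60 ± 0.14 beside Spi1. Among those that fell were Hnf4a (-0.34 ± 0.13) and Cebpa (-0.56 ± 0.11), factors that maintain hepatocyte transcription. Cebpa differed in its FB1 effects by -0.69 ± 0.16 (adjusted p = 0.0106). Tnf, the inflammatory cytokine, was 0.69 ± 0.18 higher in KO without FB1 (adjusted p = 0.00936) and was not called with FB1 in KO. Motifs of factors that act on complement genes were searched in the same 25 member windows. A C/EBP motif (TTGCNNAA) stood in 3 (C1ra, C3, C9, against 10.8% of all windows), a GAS motif (TTCNNNGAA) in 5 (C1ra, C7, C8a, Masp2, Vtn, against 8.3%) and an ISRE core (GAAANNGAA) in 5 (C5ar1, C7, Cd46, Cd59a, Vtn, against 8.56%). An NF-kB motif (GGGANTTTC, 1.11% of all windows) and an LXR response element (AGGTCA and AGGTCA, 4 bases apart, 0.0152%) stood in 0 of the 25.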

How the data were processed

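Liver RNA of 24 mice was hybridised to 1-colour Agilent arrays, 1 array per mouse. Per the file headers, the deposited signal intensity was background-subtracted and detrended by Agilent Feature Extraction 10.10.1.1, and probe positions are mm9. The authors' deposited log2 table served as an alternative; the sources used here do not give its normalisation. Its columns have nearly equal medians and quartiles. Here log2 intensity minus each array's 75th percentile was used, with outlier spots left out. Probes bright enough to be well above background throughout at least 1 group were tested, 33417 in all, and a gene is its tested probe with the highest mean. limma 3.58.1 (R 4.3.3) fitted 4 group means to all arrays, and Benjamini-Hochberg adjustment ran over 21956 genes with a threshold of 0.05. Each of the 3 slides held 2 arrays of every group. The number of arrays limits precision. On simulated data for FB1 in KO over 21956 genes, 87 of 100 changes of log2 1 and 100 of 100 of log2 2 were recovered, with 7 false calls. Only those genes were changed, with noise independent between genes, whereas 41.3% of all genes were called in the data. The recovery rates therefore need not hold for the data. Alternatives covered scaling, background, filters, probe choice, blocks, variance model and single arrays. All members were named or accounted for, and at most 8 other complement genes among those called, and some genes of these lists are not reported here. Members and lists were chosen with earlier results of these data known. Promoter sequences are RefSeq's (GRCm38.p6), matched by symbol for 25 of 35 members. Figures were drawn with matplotlib 3.10.9.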

Additional observations from a re-analysis of the deposited data

Results flagged for a closer look

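The FB1 effect differed between KO and WT livers for 8 members by limma's test of the difference, with KO minus WT values of 2.73 for C6 (adjusted p = 0.000313), 1.20 for C3ar1 (0.00253), 0.72 for C5ar1 (0.0214), 0.83 for C1qa (0.0367) and 0.82 for Itgb2 (0.0412). The lower ones were -0.53 for Mbl1 (adjusted p = 0.0224), -0.68 for C7 (0.0229) and -0.51 for C8g (0.0464). The C7 call was lost in the authors' values (-0.53, adjusted p = 0.079). The direction was the same on all 3 slides for 7 of the 8, C8g being the exception.

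A single array lay far from the other 5 of its group in 8 of 136 groups of members, and chance flags about 1 in 20. In WT FB1 livers that array was replicate 2 for 5 genes. It read 1.51 for C1qb (others 2.10 to 2.32), 6.38 for Hc (5.86 to 6.03), 0.14 for C6 (-0.28 to -0.17), 8.18 for Serping1 (7.48 to 7.65) and 8.63 for Vtn (8.2 to 8.33). Itgb2 read 0.78 in KO FB1 replicate 6 (others 0.32 to 0.44). C5ar1 read -3.18 in KO control replicate 1 (others -3.88 to -3.64), and Cfp 3.22 in WT control replicate 4 (others 4.08 to 4.36).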

How the results depend on the processing

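Of 55 member calls over the 5 comparisons, 29 held under every alternative run and 26 were lost under at least 1; the causes were not tested. The FB1 effect in KO turned positive for C1ra (quantile normalisation 0.01, 0.04 in the authors' deposited table), Cfb (0.14 and 0.17) and Cfi (0.21 and 0.19). The hepatocyte-made median became 0.13 and 0.10. KO against WT under FB1 then called 10 and 9 members, against 33.8% and 31.5% of all genes. In WT livers FB1 called 3 members with quantile normalisation, against 2.47% of all genes. It called 0 with no filter on dim probes, slide as a block, only the groups compared, or array weights. Of all genes 1.16%, 2.92%, 1.72% and 2.6% were called there. The difference of the FB1 effects called 5 with no filter, against 3.4% of all genes. Masp1 turned negative where another probe became its brightest or probes were averaged: KO against WT without FB1 gave -0.63 (normexp), -0.62 (authors' deposited table) and -0.65 (without KO FB1 replicate 1 or 2; up to 0.12 without other arrays), and under FB1 -1.09, -1.01, -0.37 (mean of probes), -1.05 and -0.99. On slide 2 alone the myeloid-made median was -0.36 for KO against WT without FB1 and 0.09 for the difference, which was 1 on slide 3 alone.

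Leaving out 1 array gave 15 to 21 calls for FB1 in KO, 0 to 1 for FB1 in WT, 8 to 11 for KO against WT without FB1, 14 to 18 under FB1 and 5 to 10 for the difference. The share of all genes called was 36.2% to 44.4%, 1.72% to 3.85%, 12.8% to 15.9%, 28.1% to 35.6% and 6.76% to 13.8% in that order. The myeloid-made median ranged from 0.62 to 0.75, -0.11 to 0.11, -0.73 to -0.51, -0.08 to 0.07 and 0.63 to 0.81 in that order, and the hepatocyte-made median from -0.18 to -0.10, 0.03 to 0.13, 0.01 to 0.07, -0.19 to -0.12 and -0.30 to -0.20.

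With the replicate number as a block, 18, 1, 9, 17 and 7 members were called in that order. Of all genes 40.4%, 2.5%, 14.4%, 31.7% and 8.66% were called. Same-numbered arrays correlated at -0.201 to 0.24 in their deviations, and 3 of 24 correlated best with their own number, so the numbers were not taken as pairs. Over all genes, the share higher among those called for the difference was 47.8%, and 55.9% with quantile normalisation and 58.6% in the authors' deposited table.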
